A study of Manihot esculenta with 4 samples.

Results

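Control leaves of 2 cassava cultivars, Xinxuan048 and KU50, were compared through the deposited FPKM of 1 library each. FPKM count sequenced fragments relative to the length of the transcript and the mapped total of the library. The KU50 group was leaf of cultivar KU50 under the control condition, and the Xinxuan048 group was leaf of cultivar Xinxuan048 under the same label. The labels give no watering regime, plant age, sampling time or number of plants, and they call these libraries control or normal, not well-watered. Where a library's file left a gene out, its FPKM was set to 0 and the gene is termed unlisted. The comparison covers genes whose FPKM averaged 1 or more across the 2 controls, 19068 of the 26099 listed in either control library and of 27146 in the whole series. The other 2 of the 4 libraries, leaf of each cultivar under drought, did not enter this choice. They are used below to see whether a control difference recurs, and to define some of the sets and named genes described. With 1 library per side there is no test, and the differences hold both cultivar and any other difference between 2 single libraries, which cannot be told apart.

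Cassava is a starchy root crop of the tropics that farmers multiply from stem cuttings, so a cultivar is a clone whose plants share a genome. Its leaves supply the sugar that fills the roots. Cultivars of a clonal, highly heterozygous crop can differ in single bases, in the activity of shared genes and in whether a gene copy is there at all. Leaf RNA levels bear on the second of these, and the FPKM used here do not separate it from the other kinds of difference. An unlisted gene had no FPKM reported, and whether that cultivar's genome carries the gene was not measured.

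The libraries were of similar scale. KU50 control listed 25296 genes with a total of 636034 FPKM, and Xinxuan048 control listed 24405 with 630839. At 1489 loci listed in both controls, with FPKM times span under 400 in KU50 control, the most frequent ratio of Xinxuan048 to KU50 lay between 1 and 1.04, at 160 loci or 10.7%. The next most frequent ratios began at 2, with 84 loci, and at 0.5, with 80. Among loci of 800 to 1200 bases, 1% of the listed values lay below 0.0458 FPKM in KU50 control and 0.0461 in Xinxuan048 control. The number of fragments per library is not given in the sources used here, and the genes are known by locus tag only, because 0 of the tags matched the RefSeq table.

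Most leaf genes had similar values in both cultivars, and where they were at least 2-fold apart Xinxuan048 was more often the lower. On the scale of log2(FPKM + 1), Xinxuan048 minus KU50, the median was -0.13, and the middle 90% of genes lay between -1.26 and 0.66. Xinxuan048 was at least 2-fold higher at 469 genes, 2.46% of those compared, and at least 2-fold lower at 1431 genes, 7.50%. At least 4-fold differences numbered 98 higher and 342 lower, and at least 8-fold differences 28 higher and 121 lower. The lean to lower values depended in part on scale. Of the genes at least 2-fold apart, 24.7% were higher in Xinxuan048 as deposited and 35.5% after scaling by a trimmed mean of M values, which centres the ratios. That scaling moved the median by more than 0.1, to 0.02. Counted from the median of all genes as deposited, 613 genes were at least 2-fold higher and 1139 lower.

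**Figure D1:**
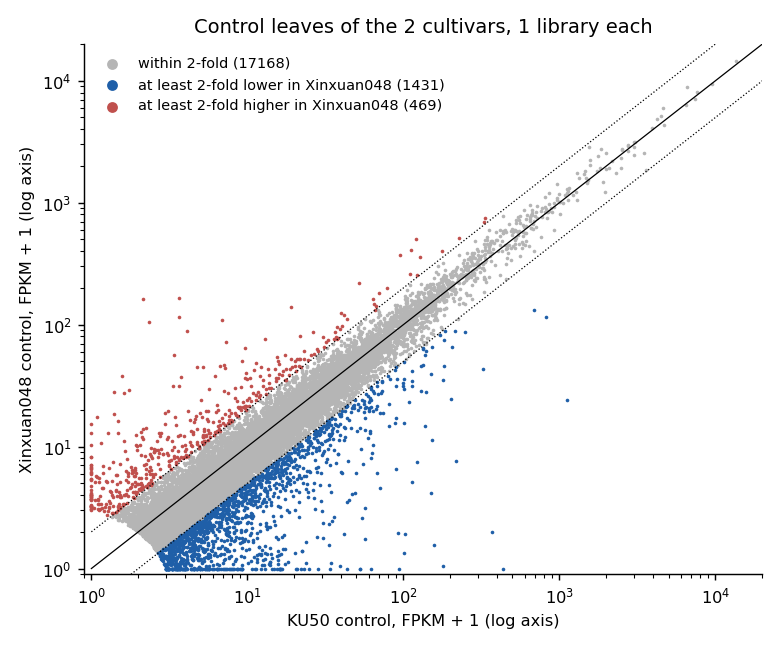
Each point is 1 of 19068 genes, with FPKM + 1 of KU50 control on the horizontal and of Xinxuan048 control on the vertical log axis; the solid line marks equal values and the dotted lines 2-fold. The 1431 genes lower in Xinxuan048 outnumber the 469 higher ones, and points on the left and lower borders are genes unlisted in 1 control.

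Among genes listed in both controls, with at least 5 FPKM in 1 of them and a locus of at least 500 bases, the far ends of the comparison behaved in 2 ways in drought. MANES_16G037000, on chromosome 16 from 4290429 to 4291962, stood at 2.64 FPKM in KU50 control and 164 in Xinxuan048 control, and then 0.234 in KU50 drought and 42.6 in Xinxuan048 drought. Its log2 ratio was 5.50 in control and 5.14 in drought, so the Xinxuan048 libraries were both above both KU50 libraries. MANES_16G012100, on the same chromosome from 1164798 to 1166935, was its counterpart on the KU50 side. It had 178 FPKM in KU50 control and 0.0475 in Xinxuan048 control, against 59.9 and 0.112 in the drought libraries of the same cultivars. Its log2 ratios were -7.42 in control and -5.78 in drought.

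The other 2 genes at these ends changed sides between conditions. MANES_01G042200, on chromosome 1 from 6892756 to 6893838, stood at 1.15 FPKM in KU50 control, 161 in Xinxuan048 control, 255 in KU50 drought and 65.9 in Xinxuan048 drought. KU50 control alone was low, and the log2 ratio of the cultivars went from 6.24 in control to -1.94 in drought. MANES_08G054400, on chromosome 8 from 5483137 to 5484517, stood at 366 FPKM in KU50 control and 0.995 in Xinxuan048 control, but 1.75 in KU50 drought and 49.6 in Xinxuan048 drought. Its log2 ratio went from -7.53 to 4.20. The tags of these genes carry no name or description in the files, so nothing is said here of their roles.

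Short loci and genes of low abundance held more than their share of the differences. Of 136 loci under 250 bases, 33.8% were at least 2-fold lower and 21.3% at least 2-fold higher in Xinxuan048. Under 500 bases together, 26.9% were lower. Both shares were smaller in each longer class, down to 2.56% lower and 0.696% higher among 2731 loci of 8000 bases and over. The SD of the log2 ratio across genes went from 1.74 in the shortest class to 0.40 in the longest. The share of lower genes was 14.5% between 1 and 3 FPKM, 8.33% between 3 and 10, 4.49% between 10 and 30, and 1.24% at 300 FPKM and over. The share of higher genes was 4.12% in the lowest of these classes and between 1.66% and 2.39% in all others. Loci under 500 bases made up 2.38% of the genes compared, 8.53% of the genes lower and 14.3% of the genes higher in Xinxuan048. A short or weakly expressed gene rests on fewer fragments, and the part that counting error had in these shares was not tested.

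**Figure D2:**
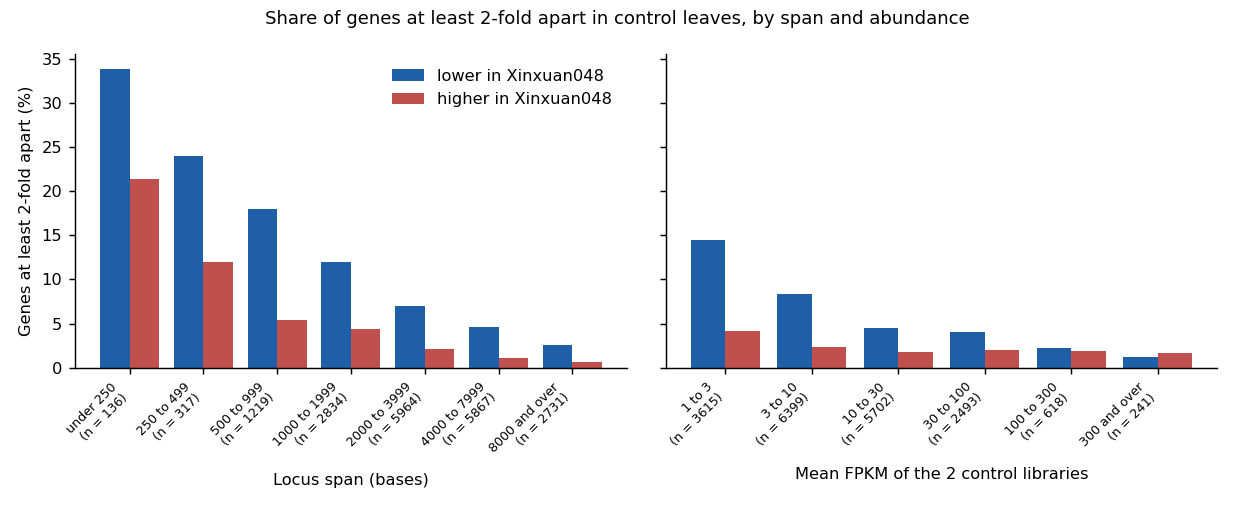
Bars give the percentage of genes at least 2-fold lower (blue) or higher (red) in Xinxuan048 control than in KU50 control, by locus span in bases on the left and by mean FPKM of the 2 control libraries on the right, with the number of genes in each class. Both shares are largest at loci under 250 bases, 33.8% and 21.3%.

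The most abundant leaf transcripts were much alike. Of 241 genes averaging 300 FPKM or more, 3 were at least 2-fold lower and 4 at least 2-fold higher in Xinxuan048, and the median log2 ratio was 0.13. The 3 lower ones were all highest in KU50 control, and this description was made after their values were seen. A locus on chromosome 2 from 14270507 to 14271550 reached 1124 FPKM in KU50 control and 23.1 in Xinxuan048 control, with 41.6 in KU50 drought and 37.3 in Xinxuan048 drought. A locus on chromosome 15 from 2994603 to 2995210 reached 824 FPKM in KU50 control and 114 in Xinxuan048 control, and the order was turned in drought, with 19.7 and 592. The third, on chromosome 2 from 4888611 to 4889086, measured 691 and 132 FPKM in the controls and 158 and 613 in the drought libraries, KU50 before Xinxuan048. Of the 4 higher ones, 2 were also at least 2-fold higher in Xinxuan048 under drought. The farthest apart of them, on chromosome 13 from 11234391 to 11234763 and 373 bases long, measured 119 FPKM in KU50 control, 501 in Xinxuan048 control, 366 in KU50 drought and 867 in Xinxuan048 drought.

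With the limit on the mean, genes listed in 1 control library only were few and mostly faint, and KU50 had more of them. Among the genes compared, 132 were listed in KU50 control only, 0.692%, and 41 in Xinxuan048 control only, 0.215%. Without that limit the numbers were 1694 and 803, of the 26099 genes listed in either control library. The 132 values in KU50 ran from 2.01 to 433 FPKM with a median of 4.04, and the 41 in Xinxuan048 from 2.01 to 14.4 with a median of 3.003. The lower ends follow from the filter. Loci under 500 bases made up 33.3% of the KU50 genes and 70.7% of the Xinxuan048 genes, against 2.38% of all genes compared. With at least 5 FPKM and a locus of at least 500 bases, 37 genes remained for KU50 and 5 for Xinxuan048.

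At the top of the KU50 list stood MANES_14G147100, on chromosome 14 from 13987331 to 13988170, at 433 FPKM in KU50 control and 207 under drought. Xinxuan048 control left it out and Xinxuan048 drought gave 0.397 FPKM, so both KU50 libraries were far above both Xinxuan048 libraries. MANES_07G050400, on chromosome 7 from 5233947 to 5234589, came next with 92.2 FPKM in KU50 control. Its drought values were 0.0831 for KU50 and 55.1 for Xinxuan048, and the Xinxuan048 control file did not list it. Xinxuan048 thus lacked a value for this gene in 1 of its 2 libraries only. At the top of the Xinxuan048 list, MANES_10G022800 on chromosome 10 from 1763063 to 1764069 reached 14.4 FPKM in control and 8.72 under drought. It was unlisted in KU50 control and had 0.154 FPKM in KU50 drought. MANES_16G066600, on chromosome 16 from 21278052 to 21279522, had 11.8 FPKM in Xinxuan048 control and 5.64 in Xinxuan048 drought, and both KU50 files left it out.

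Genes listed in 1 control only were spread over all 18 chromosomes in each cultivar. KU50 had between 1 of 833 compared genes on chromosome 18 and 14 of 1339 on chromosome 2. It had 11 of 1097 on chromosome 6, 10 of 742 on chromosome 7 and 9 of 703 on chromosome 17. Xinxuan048 had 1 to 4 on every chromosome. Unplaced sequences, pieces of the assembly with no chromosome, held 15 of the 132 KU50 genes and 0 of the 41 Xinxuan048 genes, beside 447 of the 19068 genes compared. Unplaced sequences also had the largest share of genes at least 2-fold lower in Xinxuan048, 74 of 447 or 16.6%. Among the chromosomes that share ran from 5.44% on chromosomes 5 and 13 to 10.8% on chromosome 7, where 80 of 742 genes were lower. The share at least 2-fold higher ran from 1.32% on chromosome 12 to 3.84% on chromosome 18. Chromosome medians lay close together, between -0.17 on chromosome 10 and -0.11 on chromosome 12.

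**Figure D3:**
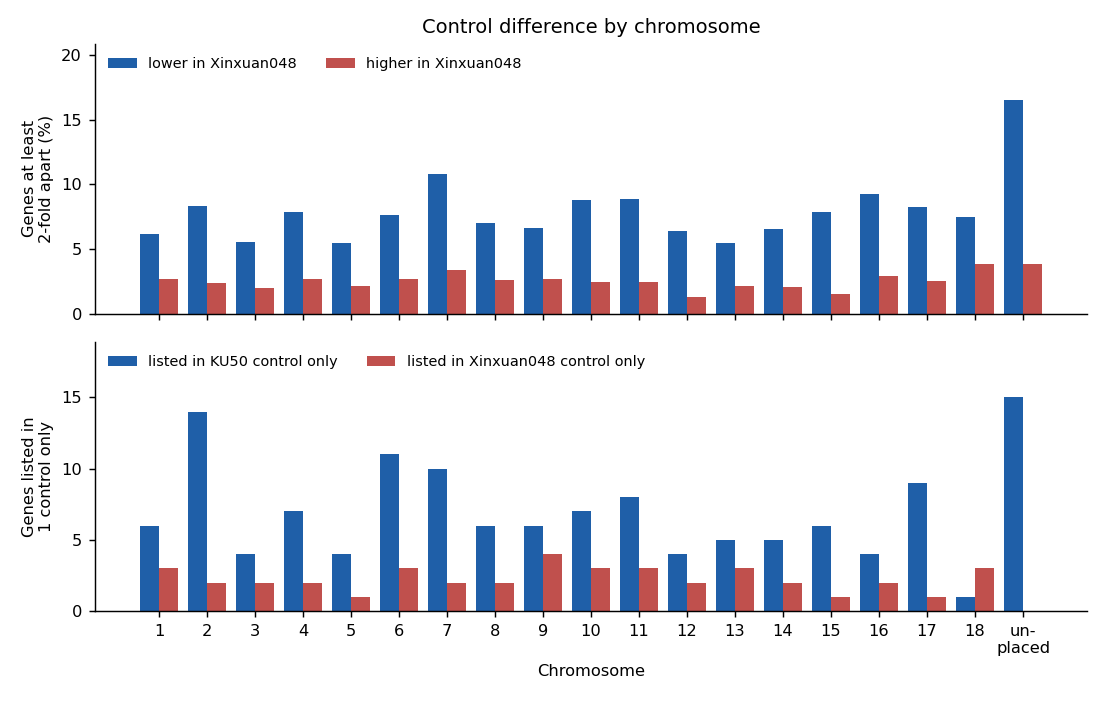
The upper bars give the percentage of genes at least 2-fold lower (blue) or higher (red) in Xinxuan048 control per chromosome, and the lower bars the number of genes listed in KU50 control only (blue) or Xinxuan048 control only (red). Unplaced sequences reach 16.6% lower, and chromosome 7 is the highest of the chromosomes with 10.8%.

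Some of these single-control genes were listed in the other cultivar's drought library. The drought libraries listed most genes of the series, 25009 of 27146 in Xinxuan048 drought and 25336 in KU50 drought. Over the 19068 genes compared, the medians were 12.3 FPKM in KU50 drought and 11.5 in Xinxuan048 drought. In the same order, they were 0.320 and 0.281 for the 132 KU50 genes and 0.154 and 1.79 for the 41 Xinxuan048 genes. Of the 132 KU50 genes, 76 were listed in Xinxuan048 drought, 44 of them with at least 1 FPKM, and 83 were listed in KU50 drought. Drought libraries of neither cultivar listed 25 of them, and 31 were listed in KU50 drought but not in Xinxuan048 drought. Of the 41 Xinxuan048 genes, 21 were listed in KU50 drought, 14 of them with at least 1 FPKM, and 27 in Xinxuan048 drought. For 9 the Xinxuan048 libraries were the only ones, and 11 were in neither drought library. Beside MANES_07G050400, the clearest case of a gene unlisted in Xinxuan048 control and present in its drought library was MANES_S095100, on an unplaced sequence from 10512 to 11947. It had 14.6 FPKM in KU50 control and 13.6 in Xinxuan048 drought and was unlisted in the other 2 libraries. In the other direction, MANES_06G038900 on chromosome 6 from 10888144 to 10893485 had 5.60 FPKM in Xinxuan048 control, 4.77 in Xinxuan048 drought and 2.23 in KU50 drought. MANES_10G139300, on chromosome 10 from 25075775 to 25076330, measured 5.66, 2.87 and 0.766 FPKM in the same order. KU50 control left both out.

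Another reading of presence in 1 cultivar asked for a gene listed in both libraries of a cultivar and in neither of the other. It was applied to all 27146 genes of the series, without the limit on the mean. At any value 369 genes met this for KU50 and 147 for Xinxuan048, with median control values of 0.198 and 0.160 FPKM. Of these, 31 and 9 were among the 19068 genes compared. With at least 1 FPKM in both libraries there were 34 and 13, and with at least 5 FPKM 8 and 1. MANES_01G247900, on chromosome 1 from 32534048 to 32534697, was measured at 19.4 FPKM in the KU50 control and 17.8 in the KU50 drought library. MANES_10G108000, on chromosome 10 from 21004830 to 21007720, measured 15.7 and 16.2 FPKM in the same libraries. Both genes had nearly equal values in the 2 KU50 libraries, and neither Xinxuan048 file listed them. On the Xinxuan048 side, MANES_16G066600 was followed by MANES_11G121600, on chromosome 11 from 23103658 to 23104336, at 2.83 FPKM in control and 3.51 under drought.

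These 34 and 13 genes were scattered. The 34 lay on 13 chromosomes and included 7 on unplaced sequences, and the 13 lay on 9 chromosomes with 0 unplaced. In control, the 34 had between 1.27 and 23.8 FPKM with a median of 3.28, and in drought between 1.005 and 20.2 with a median of 3.36. The 13 had between 1.07 and 11.8 FPKM in control with a median of 2.07, and between 1.24 and 6.94 in drought with a median of 3.51. Loci under 500 bases numbered 15 of 34 and 4 of 13. Among all 369 and 147 genes, the longest stretch of next neighbours in the files was 2, which occurred 16 times for KU50 and 4 times for Xinxuan048. No block of 3 or more neighbouring genes was listed in 1 cultivar alone.

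In the drought libraries, which share no library with the control comparison, a minority of the differences were again at least 2-fold in the same direction. Of the 469 genes higher in Xinxuan048 control, 159, or 33.9%, were at least 2-fold higher in Xinxuan048 drought as well, where 2.90% of all genes compared were. Of the 1431 lower genes, 303, or 21.2%, were also at least 2-fold lower in drought, against 3.60% of all. On the same side by any amount were 76.8% of the higher and 65.5% of the lower genes, where 41.8% of all genes compared were above and 57.9% below 0 in drought. Turned to the opposite side by at least 2-fold were 27 of the 469, 5.76%, and 126 of the 1431, 8.81%. Among larger control differences, both recurrence at 2-fold and reversal at 2-fold took a larger share. Of the 28 genes at least 8-fold higher in control, 20 were at least 2-fold higher in drought and 4, or 14.3%, at least 2-fold lower. Of the 121 at least 8-fold lower, 50, or 41.3%, were at least 2-fold lower in drought and 29, or 24.0%, at least 2-fold higher. On the same side by any amount were 54.5% of those 121.

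**Figure D4:**
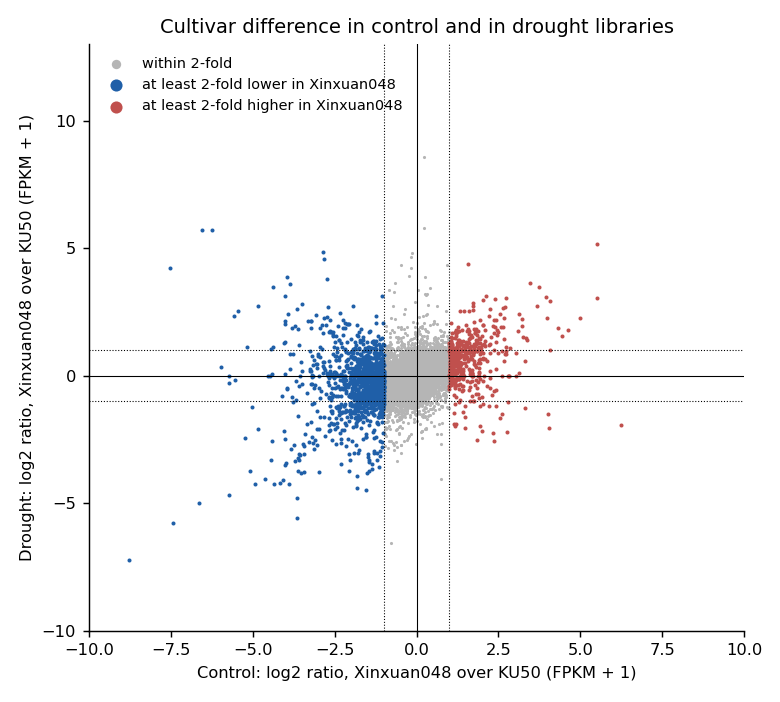
Each point is 1 of 19068 genes, with the log2 ratio of Xinxuan048 over KU50, from FPKM + 1, in control on the horizontal and in drought on the vertical axis; dotted lines mark 2-fold. Blue genes (lower in control) fill the band between the horizontal dotted lines more than the area below it, with 1002 of 1431 within 2-fold in drought and 303 below.

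The classes are defined by the drought ratio, so the order and distance of their drought medians follow from that choice, and the levels are given as a description. The 303 genes lower in both conditions had medians of 8.21 FPKM in KU50 control and 0.917 in Xinxuan048 control, then 11.0 in KU50 drought and 1.86 in Xinxuan048 drought. The 159 genes higher in both had medians of 2.09 and 11.3 FPKM in the controls and 2.56 and 11.2 in drought, KU50 before Xinxuan048. The 1002 genes lower in control and within 2-fold in drought had medians of 7.08 FPKM in KU50 control and 1.71 in Xinxuan048 control, and 4.64 and 3.92 in the drought libraries. In the 126 that turned, the medians were 6.63 and 0.440 in control and 0.422 and 4.18 in drought.

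At many of these genes 1 control library stood apart from the 3 remaining ones. KU50 control was at least 2-fold above each of the 3 other libraries at 367 of the 1431 lower genes. Xinxuan048 control was at least 2-fold below each of the others at 295 of them. Among the 469 higher genes, KU50 control was below all others by that limit at 189 and Xinxuan048 control above all others at 68. KU50 control was the highest of the 4 libraries at 67.4% of the lower genes, against 18.1% of all genes compared. A control library 2-fold beyond all others is 2-fold from the other control, so such genes are always among those chosen, and these counts and ranks follow in part from the choice. Over all genes compared, KU50 drought was 2-fold above all others at 227 and below at 154, and Xinxuan048 drought at 66 and 42.

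Some differing genes lay side by side. Along each sequence, ordered by start among the genes compared, runs of at least 3 neighbours at least 2-fold lower in Xinxuan048 numbered 33 and held 125 of the 1431 genes. Runs at least 2-fold higher numbered 4 and held 13 of the 469. The other lower genes stood alone, 998 of them, or in 154 pairs. With a share of 7.50% lower over all genes some neighbours would both be lower without any link between them, and the number of runs was not tested against random order. With neighbours taken among all listed genes of the series, runs of lower genes numbered 22 and runs of higher genes 3. Counted from the median log2 ratio they numbered 24 and 7.

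The longest run held 10 genes lower in Xinxuan048 control, on chromosome 4 from 25731984 to 25902166, a stretch of 170 kb between MANES_04G127000 and MANES_04G128100. Their values in KU50 control ran from 2.64 to 61.3 FPKM with a median of 16.8. Xinxuan048 control was unlisted at 3 of them and reached 20.3 FPKM at most. Under drought the run did not hold together, with 2 of the 10 at least 2-fold lower in Xinxuan048, 1 at least 2-fold higher and 7 within 2-fold. The ninth gene, from 25867072 to 25870026, was one of the 2 and had 61.3 and 7.04 FPKM in the controls and 27.5 and 8.37 in drought, KU50 before Xinxuan048. Its next neighbour, from 25899365 to 25902166, had 13.5 FPKM in KU50 control, was unlisted in Xinxuan048 control and had 0.430 and 0.694 FPKM in drought.

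Of the 33 lower runs, 4 had most of their genes at least 2-fold lower in drought and 16 had none, and of the 4 higher runs 2 had most and 1 had none. The runs described next were chosen after their values were seen. On chromosome 1 from 1830338 to 1891372, 4 neighbours were higher in Xinxuan048 in control and all 4 were at least 2-fold higher in drought. The first had 2.66 FPKM in KU50 control and 115 in Xinxuan048 control, then 4.01 and 23.3 in drought. The third had 0.561 and 37.2 FPKM in control, then 4.14 and 16.7 in drought. On chromosome 12 from 4136922 to 4258804, 4 neighbours were lower in Xinxuan048 control and all 4 were higher in Xinxuan048 drought, with log2 differences of 1.99 to 2.61. Their KU50 control values ran from 6.40 to 19.1 FPKM, their Xinxuan048 control values from unlisted to 0.822, their KU50 drought values from unlisted to 0.557 and their Xinxuan048 drought values from 2.96 to 7.41. KU50 control and Xinxuan048 drought thus lay above the other 2 libraries at all 4 genes. On chromosome 8 from 5483137 to 5719018, in a run of 7 lower genes that starts with MANES_08G054400, 3 were at least 2-fold higher in Xinxuan048 drought. On chromosome 6 from 11975973 to 12217015, 6 neighbours had 2.06 to 8.13 FPKM in KU50 control and at most 0.906 in any other library.

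**Figure D5:**
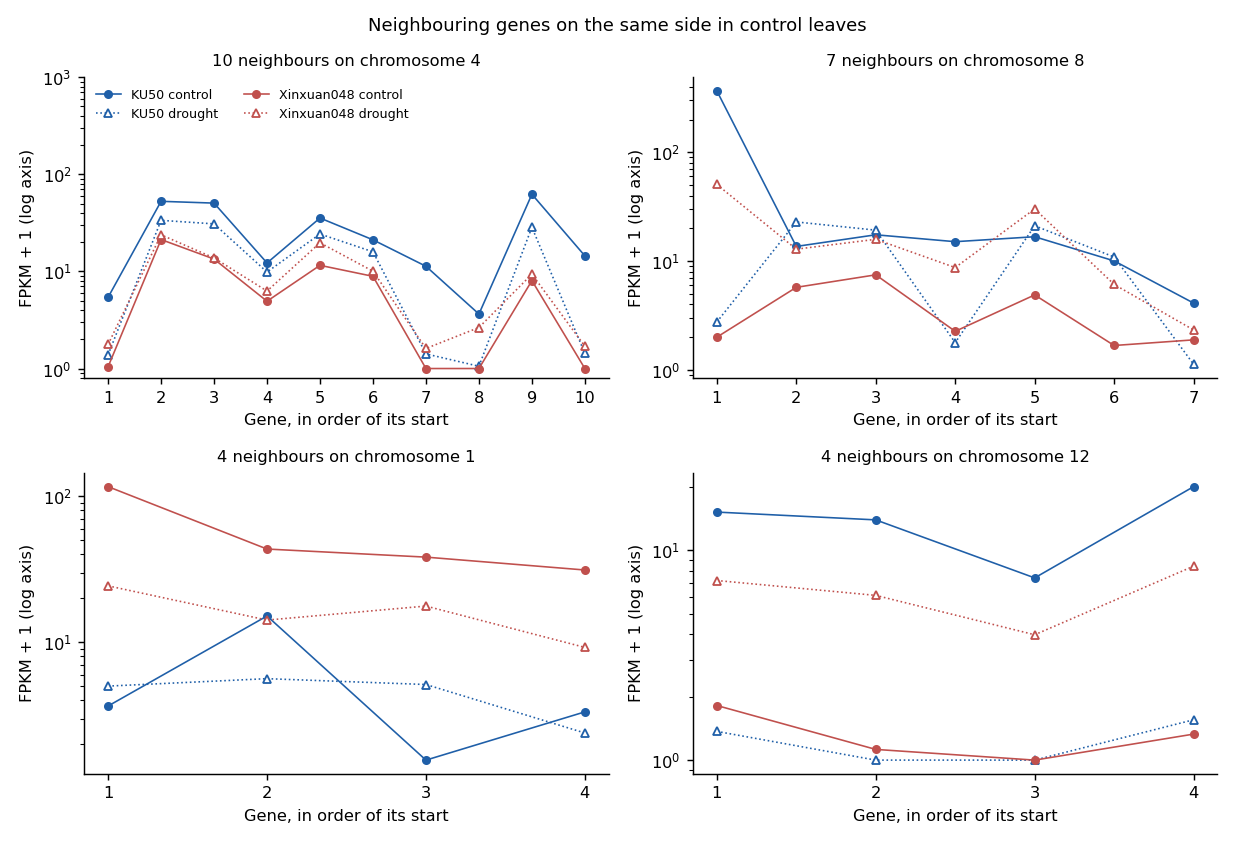
Each panel follows 1 run of neighbouring genes in order of their start, with FPKM + 1 on a log axis; circles and solid lines are control, triangles and dotted lines drought, blue KU50 and red Xinxuan048. In the run on chromosome 1 both red lines lie above the blue ones at every gene but the second, where KU50 control has 14.1 FPKM and Xinxuan048 drought 13.2, and on chromosome 12 KU50 control and Xinxuan048 drought lie above the other 2 libraries.

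In 2-Mb windows with at least 20 compared genes, 211 in all, the median share of genes at least 2-fold lower was 6.80%. The median share at least 2-fold higher was 1.96%. The windows described here were picked after their values were seen. A share in a window of few genes can be extreme without any link between them, and none was tested against random order. The highest shares were 8 of 31 genes on chromosome 6 between 12 and 14 Mb, 25.8%, and 12 of 47 on chromosome 4 between 6 and 8 Mb, 25.5%. Of those 12 on chromosome 4, 0 were at least 2-fold lower in drought and 0 of the 47 genes were at least 2-fold higher in control. They include a run of 6 neighbours from 6296274 to 6578906, with 7.01 to 52.1 FPKM in KU50 control and 1.68 to 10.3 in Xinxuan048 control. At the start of chromosome 16, between 0 and 2 Mb, 20 of 108 genes were lower in control and 7 of these also in drought, and 5 were higher, of which 4 also in drought. MANES_16G012100 lies in that window. The largest share of higher genes was 5 of 20 on chromosome 2 between 24 and 26 Mb, and 0 of the 5 reached 2-fold in drought. All 5 were nonetheless higher in Xinxuan048 there, with log2 ratios between 0.53 and 0.90, beside 1.04 to 1.30 in control.

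Neighbours also differed in opposite directions. At 76 pairs of next neighbours among the genes compared, 1 gene was at least 2-fold higher and the other at least 2-fold lower in Xinxuan048 control, and at 13 pairs both differences recurred in drought. Of all 19068 genes compared, 2.46% were higher and 7.50% lower, so some such pairs would occur without any link between neighbours. The number of pairs was not tested against random order. A pair on chromosome 7 from 21240380 to 21244880 lay 762 bases apart. Its first gene measured 10.5 FPKM in the KU50 control and 6.02 in the KU50 drought library, against 0.788 and 1.25 in Xinxuan048. Its second had 1.40 and 0.875 FPKM in KU50, against 8.73 and 6.52 in Xinxuan048, so the order of the cultivars was opposite at the 2 genes under both conditions. The locus just before the pair, from 21238578 to 21239035, measured 14.8 FPKM in the KU50 control and 9.73 in the KU50 drought library and was in neither Xinxuan048 file. A pair on chromosome 1 from 24798923 to 24809777 showed the same crossing, with 0.642 and 8.15 FPKM in the controls at the first gene and 5.35 and 1.85 at the second, KU50 before Xinxuan048. Where neighbouring genes are near-identical copies, the assignment of fragments between them is uncertain, and their sequences were not used here.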

How the data were processed

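Libraries from leaf RNA were prepared for Illumina HiSeq sequencing, as the labels' protocols state. The submitters' processing notes name TopHat2 2.0.12 and Cufflinks, with no role, settings or Cufflinks version. The genome build and annotation are not given in the sources used here. The authors deposited 1 FPKM value per gene and library, fragments scaled to transcript length and library size, and no counts, so no interval for counting error is given.

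Genes were matched across files by locus tag. Locus starts were raised by 1 because that made the span of 66.5% of 1400 loci under 600 bases a multiple of 3, against 17.4% as written; positions therefore count from 1. A locus span includes introns. Of the genes compared, 696 share their listed locus with another gene, and fragments of such overlapping genes are uncertain. The chromosome was read from the tag, as each numbered prefix fell on 1 sequence.

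Values were analysed as log2(FPKM + 1) with FPKM as deposited, a filter of a mean of 1 FPKM over the control libraries and a limit of 2-fold. The pseudocount of 1 understates differences of low genes. With 1 library per side nothing was tested. The trimmed mean of M values was computed from FPKM without weights. Scaling, pseudocount, filter, fold limit and span limit were varied. The fold calls and the trimmed-mean scaling were checked on KU50 control values multiplied by known factors, without noise or a pseudocount. The search for runs was checked on a short made-up list. These checks concern the code only, not how often single libraries give false calls. Python 3.11.15, pandas 2.3.3 and matplotlib 3.10.9 were used.

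Named genes were the 2 most extreme in each direction for each of 4 questions: the log2 ratio among genes listed in both controls, the value of genes listed in 1 control only, the lower value of genes listed in 1 cultivar only, and the drought value of genes with at least 5 FPKM in 1 control, unlisted in the other control but listed in that cultivar's drought library. All were limited to loci of at least 500 bases; loci named by position only were chosen after their values were seen. Lists of pathways and leaf cell type markers select genes by description and were not applied, since 0 of 27146 tags matched a table of 34312 RefSeq genes. The members, lists and limits were chosen with earlier results of these data known.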

Additional observations from a re-analysis of the deposited data

Results flagged for a closer look

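Differences between the cultivars that turned round between control and drought drew attention, and none of these reversals was tested. Of 1431 genes at least 2-fold lower in Xinxuan048 control, 126, or 8.81%, were at least 2-fold higher in drought, against 2.90% of all genes compared. Of 469 genes at least 2-fold higher in control, 27, or 5.76%, were at least 2-fold lower in drought, against 3.60% of all. Among the named genes, the log2 difference in drought minus that in control, on the scale of FPKM + 1 with an unlisted gene taken as 0, was 12.24 for MANES_07G050400, 11.73 for MANES_08G054400 and 7.83 for MANES_S095100. It was -8.18 for MANES_01G042200. Each value rests on 4 libraries of 1 per group.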

How the results depend on the processing

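Leaving out a library was not run, since each group holds 1. Depth is unknown, so which differences exceed counting error is unknown too. No paired analysis was possible because the labels give no replicate numbers and each group has 1 library. The restriction to loci held by 1 gene was chosen after the data were seen and moved no count beyond 1.5 times. The cause of the shifts was not tested, except that stricter limits leave fewer genes.

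A mean of at least 5 FPKM took the 469 genes higher and 1431 lower in Xinxuan048 to 257 and 672, and a limit of 4-fold took them to 98 and 342. Scaling by totals gave 477 and 1408, by the upper quartile 555 and 1269 and by the trimmed mean of M values 637 and 1158, which turned the median log2 ratio from -0.13 to 0.022. Genes listed in 1 control only, 132 in KU50 and 41 in Xinxuan048, became 1694 and 803 without a filter and 53 and 12 at 5 FPKM in the listing library, and with loci of at least 500 bases Xinxuan048 had 12. Genes listed in 1 cultivar only in all 4 libraries, 369 and 147, fell to 34 and 13 at 1 FPKM and to 8 and 1 at 5 FPKM. The share of lower genes that were also lower in drought was 24.0% with a pseudocount of 0.1. Counted from the median, runs of higher genes numbered 7 instead of 4, and runs of lower genes 24 instead of 33. With neighbours taken among all listed genes of the series, they numbered 3 and 22. With a mean of at least 5 FPKM, 672 of all 13197 genes left were lower. The share of lower genes was then 9.56% on unplaced sequences and 7.51% on chromosome 7. It was 22.0% at loci under 500 bases and 1.79% at loci of at least 8000 bases. At the latter loci the trimmed mean, with the filter of a mean of 1 FPKM, gave 1.90%. A pseudocount of 0.1 widened the control log2 ratios of the named genes, to 7.02 for MANES_01G042200, 5.90 for MANES_16G037000, -8.39 for MANES_08G054400 and -10.24 for MANES_16G012100.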
